A study of Mus musculus with 6 samples.

Results

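The simple epithelial keratins Krt7, Krt8, Krt18, Krt19, Krt20 and Krt23 were examined in colon epithelium of mice lacking the beta-catenin co-activators Bcl9 and Bcl9l. A probe set, the array's group of short probes for a transcript, was included when the platform annotation gave it 1 gene symbol and that symbol was one of these 6 genes. This rule found 8 probe sets among the 45101 of the Affymetrix Mouse Genome 430 2.0 array, 3 of them for Krt8 and 1 for each other gene. The knockout group held 3 arrays of vil-Cre-Bcl9-/-/Bcl9l-/- mice (knockout 1, 2 and 3, from pools of 3, 2 and 2 mice) and the wild-type group 3 arrays (wild type 4, 5 and 6, from pools of 3 mice each). All mice were 12 weeks old, healthy and of mixed 129SvEv/C57BL/6/DBA/2 background. Epithelium was released with 3 mM EDTA and 0.05 mM DTT and was not sorted. In vil-Cre mice the villin promoter directs Cre recombinase to intestinal epithelial cells. The wild-type labels do not name it, and effects of the Cre transgene and of losing Bcl9 and Bcl9l cannot be told apart.

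Keratins build the intermediate filaments of epithelial cells. A type I keratin (here Krt18, Krt19, Krt20 and Krt23) pairs with a type II keratin (here Krt7 and Krt8), and neither kind forms filaments alone. In the intestine Krt8 is the main type II partner of Krt18, Krt19 and Krt20, and mice without Krt8 develop colitis. Krt20 is found mostly in differentiated cells of the upper crypt and surface. The comparison addresses whether the keratin makeup of healthy colon epithelium differs when both co-activators are lost.

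None of the keratins differed between knockout and wild type beyond the spread between arrays. Krt8, Krt18 and Krt19 read almost the same on all 6 arrays, and Krt20 differed more among arrays of one genotype than between genotypes. Krt7 read 0.25 lower in the knockouts on the log2 scale, a difference that did not pass the test, and Krt23 varied most from array to array. limma, with Benjamini-Hochberg adjustment over 45037 probe sets, called 0 of the 8 keratin probe sets at a threshold of 0.05, where 0% of all probe sets were called. At an unadjusted p under 0.05 there were again 0 of 8 keratin probe sets, against 4.15% of all probe sets. Knockout and wild-type values overlapped for all 8, and 9.69% of all probe sets did not overlap. The smallest adjusted p on the array was 0.326.

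Levels are given as deposited, in log2 units, where 1 unit is a doubling. A level depends on the probes as well as on the transcript, so the levels of different keratins are not ranked against each other. Because these are bulk samples, fewer cells of a type and less RNA per cell cannot be told apart.

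**Figure D1:**
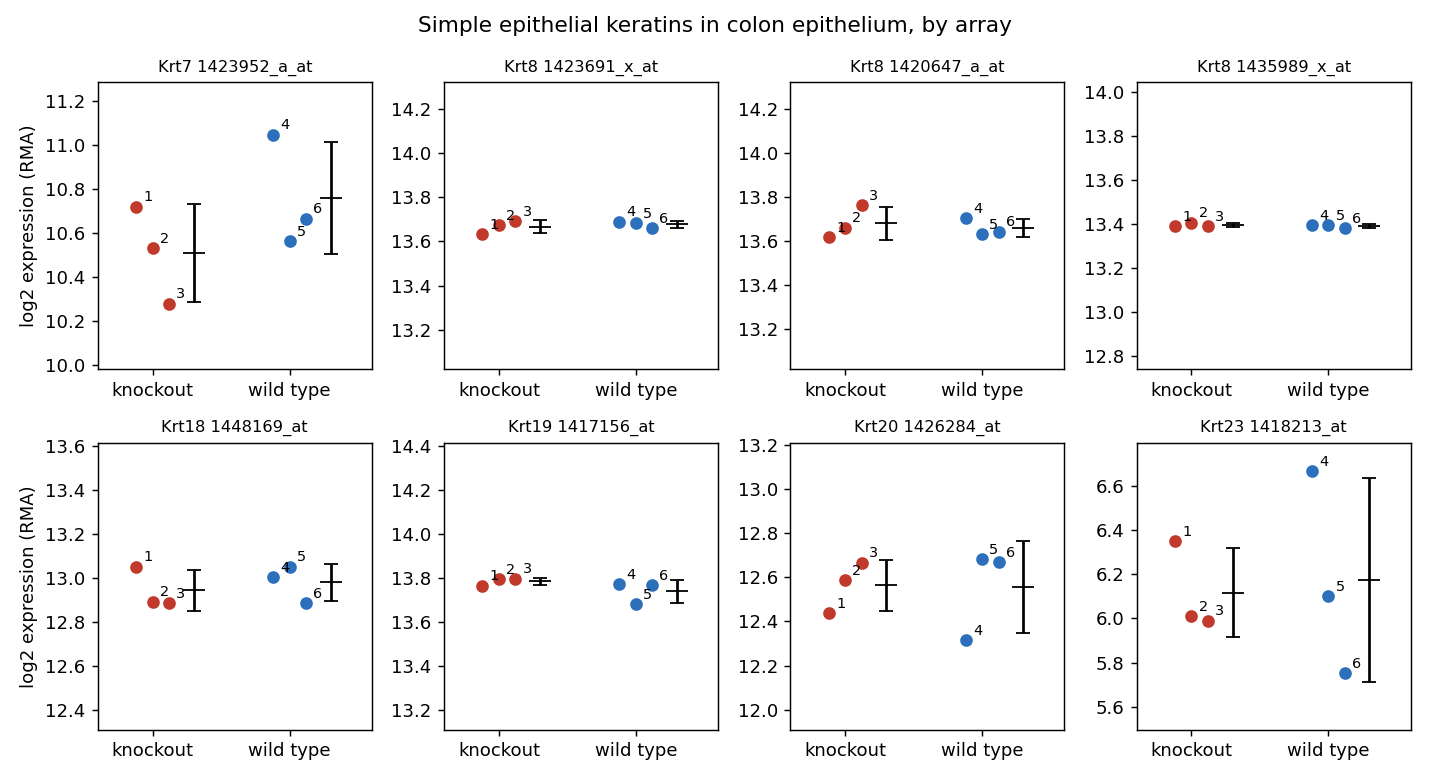
Log2 expression (vertical axis, RMA values) of each keratin probe set in the 3 knockout arrays (red) and the 3 wild-type arrays (blue), numbered by replicate; black bars are the group mean ± SD, and every panel spans the same height. Knockout and wild-type points overlap in all 8 panels, and the points of Krt7 and Krt23 are the most scattered.

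Among the type II keratins, Krt8 was read by 3 probe sets. In the probe set 1420647_a_at it measured 13.62, 13.66 and 13.76 in knockouts 1, 2 and 3, against 13.70, 13.63 and 13.64 in wild type 4, 5 and 6. In 1423691_x_at it measured 13.63, 13.67 and 13.69 in the knockouts, against 13.69, 13.68 and 13.66 in wild type. In 1435989_x_at it measured 13.39, 13.41 and 13.39 in the knockouts, against 13.40, 13.40 and 13.38 in wild type. No array was the highest or the lowest in all 3 probe sets. Knockout 1 and wild type 6 lay slightly below the mean over arrays in all 3, and wild type 4 slightly above it. The differences, knockout minus wild type, were 0.02 (SE 0.11), -0.01 (SE 0.10) and 0.0056 (SE 0.10), with limma adjusted p = 0.997, 0.999 and 0.999. The suffix _x_at marks probe sets in which some probes may also match other sequences, so those readings of Krt8 could include related transcripts.

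For Krt8 the 95% intervals were narrow. That of 1420647_a_at extended from -0.23 to 0.27, which is 0.851 to 1.21 times the wild-type level. In limma with both an intensity trend and robust estimation, the interval was -0.11 to 0.15, or 0.928 to 1.11 times. The intervals of 1423691_x_at and 1435989_x_at under that fit were -0.12 to 0.09 and -0.10 to 0.11. These bounds hold as far as the array reads bright transcripts in proportion.

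Krt7, a type II keratin of ductal and glandular epithelia, was read by the probe set 1423952_a_at. It measured 10.72, 10.53 and 10.28 in knockouts 1, 2 and 3, against 11.04, 10.56 and 10.66 in wild type 4, 5 and 6. The lowest value was that of knockout 3 and the highest that of wild type 4, while knockout 1 lay above wild type 5 and wild type 6. Knockouts averaged 10.51 ± 0.22, wild type 10.76 ± 0.25 (SD, n = 3 each). The difference of -0.25 (SE 0.18, 95% interval -0.68 to 0.18, limma adjusted p = 0.991) is a 1.19-fold lower mean in the knockouts, within an interval of 0.626 to 1.13 times. Krt7 had the largest difference of the 8 probe sets. It was -0.10 without wild type 4 and -0.039 with mice per pool as a covariate. Without knockout 1 it was -0.35, as it was without wild type 5 and with array weights. Its sign was the same in all 13 alternatives.

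**Figure D2:**
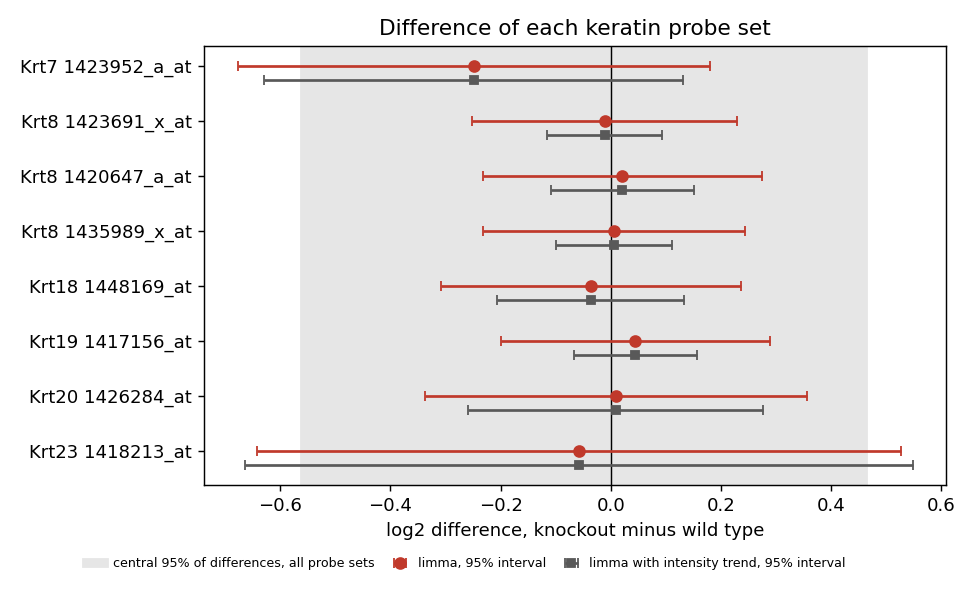
Log2 difference (knockout minus wild type, horizontal axis) of each keratin probe set with its 95% interval, from limma (red circles) and from limma with an intensity trend and robust estimation (grey squares); the shaded band holds the central 95% of differences of all probe sets (-0.56 to 0.47). All 8 intervals include 0, and they are widest for Krt7 and Krt23.

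Among the type I keratins, Krt18, the usual partner of Krt8, measured 13.05, 12.89 and 12.89 in knockouts 1, 2 and 3, against 13.005, 13.05 and 12.89 in wild type 4, 5 and 6. Knockout 1 and wild type 5 were highest, and each genotype held an array near 12.89. The difference was -0.04 (SE 0.11, 95% interval -0.31 to 0.24, limma adjusted p = 0.995). Both members of the Krt8 and Krt18 pair thus had intervals that include 0.

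Krt19, a type I keratin that lacks most of the tail domain found in other keratins, measured 13.76, 13.79 and 13.80 in the knockouts, against 13.77, 13.68 and 13.77 in wild type. Wild type 5 was lowest, and knockout 1 lay below wild type 4 and wild type 6. The difference was 0.04 (SE 0.10, 95% interval -0.20 to 0.29, limma adjusted p = 0.992).

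Krt20, the keratin of differentiated colonocytes, measured 12.44, 12.59 and 12.67 in the knockouts, against 12.31, 12.68 and 12.67 in wild type. Wild type 4 was the lowest array and knockout 1 the next lowest, so that the low values came from both genotypes. Knockouts averaged 12.56 ± 0.12, wild type 12.55 ± 0.21 (SD, n = 3 each), and they differed by 0.0091 (SE 0.15, 95% interval -0.34 to 0.36, limma adjusted p = 0.999). The whole range over the 6 arrays was 0.37.

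Krt23, a type I keratin known in mouse liver to be induced by stress, measured 6.35, 6.01 and 5.99 in the knockouts, against 6.67, 6.10 and 5.75 in wild type. Wild type arrays held both the highest and the lowest value, with all knockouts in between. The difference was -0.06 (SE 0.25, 95% interval -0.64 to 0.53, limma adjusted p = 0.996). Its mean lay at the 58th percentile of all probe sets. No detection call was used here, so the Krt23 reading is not shown to be above background.

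The highest readings of Krt7 and Krt23 and the lowest of Krt20 came from both genotypes. Relative to each probe set's mean over the 6 arrays, Krt7 and Krt23 were highest in wild type 4 (0.41 and 0.52) and next highest in knockout 1 (0.09 and 0.20). Krt20 was lowest in the same arrays, at -0.12 in knockout 1 and -0.25 in wild type 4, and between 0.03 and 0.12 in the other 4 arrays. The lowest arrays of Krt7 were both knockouts, knockout 3 (-0.35) and knockout 2 (-0.10). That of Krt23 was wild type 6 (-0.39). These are descriptions of single arrays, and no test was made of them.

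**Figure D3:**
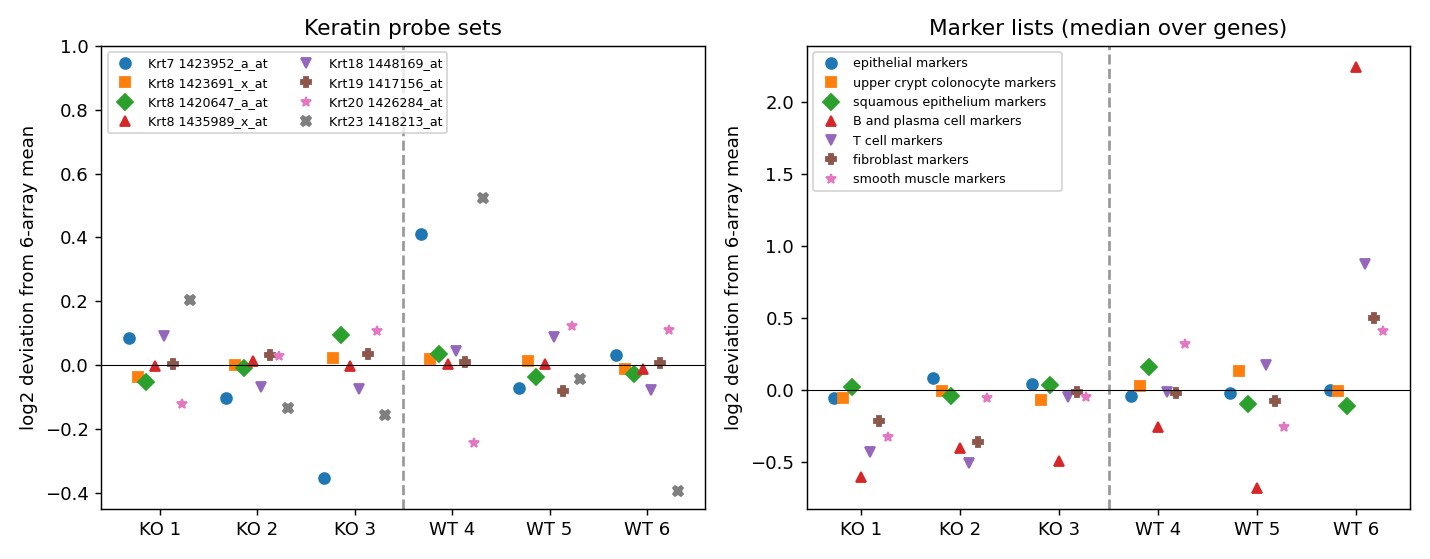
Log2 deviation from the 6-array mean (vertical axes) in each knockout (KO) and wild-type (WT) array, for the 8 keratin probe sets (left) and as the median over the genes of 7 marker lists (right, on a wider scale). Krt7 and Krt23 are high and Krt20 low in WT 4, and the B and plasma cell markers stand at 2.24 in WT 6.

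For Krt23, the only keratin whose brightest probe set had an SD of at least 0.3 over the 6 arrays, profiles were compared with those of 9091 other genes brighter than the median gene. The smallest root mean square differences between centred profiles were 0.068 for Ccpg1os, 0.078 for Ankrd40 and 0.085 for Slc37a4, a transporter of glucose-6-phosphate, in log2 units over 6 arrays. Ankrd40 measured 8.79, 8.54 and 8.54 in the knockouts, against 9.02, 8.66 and 8.32 in wild type. With so many candidates and 6 arrays, close profiles are to be found for many genes.

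The bright keratins sat where the array varies least. The 264 probe sets with a mean above 13 had a median SD of 0.064 over the 6 arrays, against 0.26 for the 9066 probe sets between 6 and 8. Within those 264, 0 had a lower SD than the Krt8 probe set 1435989_x_at (0.0084), 5 a lower SD than 1423691_x_at, 56 a lower one than Krt19 and 100 a lower one than 1420647_a_at. The SD of 1435989_x_at was also the lowest of all 45037 probe sets. Krt20, by contrast, was more variable than 80.1% of the 532 probe sets between 12 and 13, and Krt7 more variable than 87.1% of the 2941 between 10 and 12. Of the 264 brightest probe sets, 9 had a range above 0.5, the largest being 0.81. The part that compression of bright signals had in the flat readings of Krt8 and Krt19 was not tested.

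**Figure D4:**
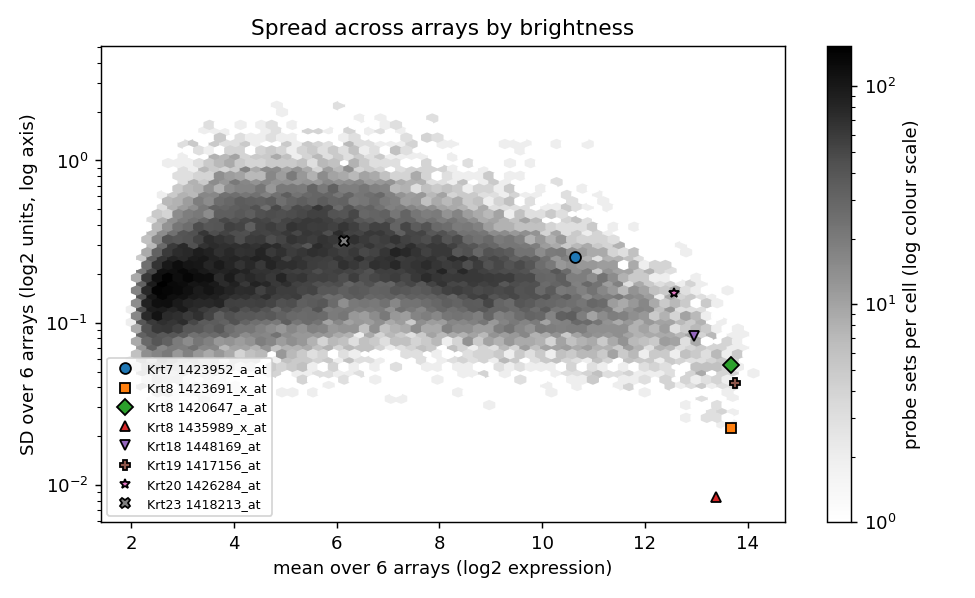
SD over the 6 arrays (vertical log axis) against the mean log2 expression (horizontal axis) for all probe sets, shaded by their number, with the 8 keratin probe sets marked. The spread falls towards the bright end, and the Krt8 probe set 1435989_x_at has the lowest SD of all, 0.0084.

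Other cells in the preparation were read from marker lists, each gene taking its brightest probe set. All 10 epithelial markers lay above the median gene, with a mean level of 12.01 to 12.17 in knockout arrays, against 12.04 to 12.08 in wild-type arrays. B and plasma cell markers (14 of 16 measured) had a mean level of 4.67 to 4.87 in the knockouts, against 5.22, 4.80 and 7.79 in wild type 4, 5 and 6. T cell markers (13 of 14) had 4.84 to 5.50 in knockout arrays, against 5.32 to 6.24 in wild-type arrays. Fibroblast markers (12 of 12) had 4.93 to 5.43 in knockout arrays, against 5.36 to 5.94 in wild-type arrays. Smooth muscle markers (8 of 8) had 5.66 to 5.92 in knockout arrays, against 5.75 to 6.40 in wild-type arrays. Wild type 6 was highest in these 4 lists. All 14 B and plasma cell markers and all 13 T cell markers had lower means in the knockouts. The T cell list held 4 genes at an unadjusted p under 0.05, against 4.18% of all genes. Without wild type 6 it again held 4, where 2595 of all 45037 probe sets were under 0.05. No marker passed over all probe sets. Without wild type 6 the median difference was -0.16 for B and plasma cell markers and -0.22 for T cell markers, against -0.99 and -0.59 with it. The keratin differences without wild type 6 were -0.27 for Krt23, -0.084 for Krt18, 0.066 for Krt20 and -0.29 for Krt7, and 0 of 8 were called. With the B and plasma cell level as a covariate they were -0.26 for Krt23, -0.089 for Krt18, 0.055 for Krt20 and -0.28 for Krt7, and again 0 were called. Beyond these fits, the part of other cells in the keratin readings was not tested. In squamous epithelium, which borders the colon at the anus, Krt5, Krt14 and Trp63 are defining genes. They averaged 6.32, 5.68 and 4.56 in the knockouts, against 6.34, 5.74 and 4.67 in wild type. Above the median gene lay 2 of 13 measured squamous markers, Krt10 (8.68 in both groups) and Sprr1a (8.09 in the knockouts, against 8.19 in wild type). The mean level of the 13 was 5.34 to 5.50 in knockout arrays, against 5.33 to 5.56 in wild-type arrays. Of the 13, 5 were above 0 and 8 below, with a median difference of -0.019. Above 0 were Krt4 (0.23), Krt13 (0.15), Krt15 (0.14), Krt6a (0.10) and Krt1 (0.02), named after their values were seen. Krt4 was the 1 of the 13 whose groups did not overlap, against 10.3% of all genes. The dimmer probe sets of Krt14 differed by -0.11 and 0.21. Keratins of this list also belong to the other keratins below.

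The targeted genes were read by 5 probe sets. Bcl9 in its brightest one measured 7.09, 7.16 and 7.58 in the knockouts, against 7.42, 6.85 and 7.24 in wild type. Bcl9l measured 8.08, 8.27 and 8.12, against 7.84, 7.76 and 8.21. Differences of the 5 ran from -0.20 to 0.22. Of them 0 were called, against 0% of all probe sets, and 0 were without overlap, against 9.69% of all probe sets. The sources used here do not say whether these probes lie in the deleted parts, so the readings do not check the labels.

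The other keratins, 42 genes mostly of skin, hair and stratified epithelia, were largely dim. Of them 4 lay above the median gene, namely Krt10, Krt42, Krt78 and Krt88. Of the 42, 20 were above 0 and 22 below, with a median difference of -0.0084, where the median over all 18193 genes was 0.0096. limma called 0. At an unadjusted p under 0.05 there were 3, against 4.18% of all genes, and 3 did not overlap between genotypes, against 10.3% of all genes. The 3 without overlap were Krt83, Krt42 and Krt4, the last named after its values were seen. Krt4 differed by 0.23 (SE 0.10) at a mean of 4.66, and its other probe set by -0.18. Krt10, a keratin of suprabasal epidermis, measured 8.74, 8.49 and 8.80 in the knockouts, against 9.11, 8.77 and 8.17 in wild type (difference -0.0035, SE 0.24).

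The 3 with an unadjusted p under 0.05 were Krt83, Krt42 and Krt12, of which Krt12 was named after its values were seen. Krt83, a hair keratin, measured 5.98, 5.97 and 5.86 in the knockouts, against 6.36, 6.29 and 6.18 in wild type, a difference of -0.34 (SE 0.11, limma adjusted p = 0.991). Krt42 measured 7.53, 7.65 and 7.57, against 7.85, 7.81 and 7.93, a difference of -0.28 (SE 0.11, limma adjusted p = 0.991), and its dimmer probe set differed by -0.24. Krt12, a keratin of the cornea, measured 5.25, 6.32 and 5.44, against 4.43, 4.50 and 5.43, a difference of 0.88 (SE 0.37, limma adjusted p = 0.991). Its highest value came from knockout 2, without which the difference was 0.56, and its other probe set differed by 0.77. Krt83 and Krt12 lay below the median gene, at 6.54, and Krt42 above it, and none was tested for detection.

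Transcripts of proteins that bind or anchor keratin filaments were read as a list of 20 genes, which includes plakins, desmosome proteins and 14-3-3 proteins. Of these, 10 were above and 10 below 0, with a median of -0.0016, which was -0.10 with mice per pool as a covariate. At an unadjusted p under 0.05 there were 0, against 4.18% of all genes. Groups did not overlap for 2 of the 20, against 10.3% of all genes, namely Dsp, which encodes desmoplakin (difference -0.08, SE 0.10), and Ywhae, a 14-3-3 gene (-0.07, SE 0.10), both named after their values were seen. Pkp2, a desmosomal plaque protein, differed by 0.22 (SE 0.18), Tchp, a keratin-binding protein, by -0.21 (SE 0.17), and Dsc2, a desmosomal cadherin, by 0.12 (SE 0.12). Other intermediate filament genes (14 of 14 measured) had a median of 0.07, with 9 above 0 and likewise 0 at an unadjusted p under 0.05. Among these, Lmnb2, of the nuclear lamina, differed by 0.18 (SE 0.13) and Nefh, a neurofilament, by 0.27 (SE 0.18) at a dim mean of 3.76.

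Markers of the upper crypt, where Krt20 is known to be made, had a median of -0.10 over 16 genes, with 5 above and 11 below 0. The median was -0.037 with array weights and -0.058 without knockout 2 or without wild type 5. It was -0.15 without wild type 4, -0.13 without knockout 3 and -0.13 with cyclic loess, so its size depended on these choices and its sign did not. At an unadjusted p under 0.05 there was 1 of 16, against 4.18% of all genes. This was Emp1, a membrane protein of epithelial cells, at 9.29, 8.81 and 8.91 in the knockouts, against 9.68, 11.06 and 9.46 in wild type (difference -1.07, SE 0.41, limma adjusted p = 0.991). Wild type 5 was the highest array, and without it the difference was -0.57. Emp1 was also the 1 of the 16 whose groups did not overlap, against 10.3% of all genes. The count at an unadjusted p under 0.05 was 0 of 16 without knockout 1 and 3 without wild type 6. It was 5 with the B and plasma cell level as a covariate. Over all 45037 probe sets these fits had 1519, 2595 and 2795 under 0.05. Slc51a, a bile acid transporter subunit, differed by -0.42 (SE 0.21) at a dim mean of 3.76. Guca2a, which encodes guanylin, differed by -0.43 (SE 0.32). The 10 transcription factors of epithelial differentiation had 7 above 0, a median of 0.06 and 0 at an unadjusted p under 0.05, against 4.18% of all genes. The median was -0.033 without knockout 2, 0.0047 without wild type 5 and 0.028 without knockout 3, and -0.084 with mice per pool as a covariate, so its sign depends on these choices. Of these, Klf4 measured 12.74, 12.89 and 12.98 in the knockouts, against 13.04, 13.08 and 13.13 in wild type (difference -0.21, SE 0.12, limma adjusted p = 0.991). Klf4 was the 1 of the 10 whose groups did not overlap, against 10.3% of all genes. Cdx1 differed by 0.23 (SE 0.14) and Grhl1 by -0.29 (SE 0.14), the latter at a mean of 5.03, below the median gene. None of these genes passed the test.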

How the data were processed

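The deposited values are log2 expression values that the authors made with RMA (version not stated), per the submitters' processing notes. Their range, 1.78 to 14.4, shows the log2 scale. Per the labels' protocols, RNA of 2 or 3 mice was pooled and 30 ng amplified. Detection calls and scan dates were not analysed here. Array medians were 5.44 to 5.58; the number of arrays, 3 per group, limits the precision, and p-values measure the spread between pools.

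After 64 control probe sets were left out, knockout was compared with wild type in limma 3.58.1 (lmFit, then eBayes, in R 4.3.3) by a two-sided test without covariates, with Benjamini-Hochberg adjustment over 45037 probe sets and a threshold of 0.05. Lists used each gene's brightest probe set (18193 genes). The fit was tested on simulated data with independent noise, in which 200 probe sets picked at random were changed together. It recovered 35.9% of 2-fold and 80.2% of 4-fold changes, so 2-fold changes are often missed. Recovery of a lone change, or of changes in bright probe sets of low spread, was not simulated.

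Named were all 6 keratins, the brightest 4 and the 2 lowest-p other keratins, and the 3 closest profiles. Of keratin partners, other intermediate filaments, upper crypt markers and epithelial transcription factors, 2 to 4 lowest-p genes were named. Genes of the B and plasma cell, T cell, fibroblast, smooth muscle and squamous lists were not named by p. Squamous genes were named as defining, as brighter than the median gene or as above 0. Other exceptions are stated. The keratins and lists were chosen with earlier results of these data known. Alternatives covered each array left out, normalization, brightness, variance model, array weights, covariates and probe set choice.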

Additional observations from a re-analysis of the deposited data

How the results depend on the processing

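No paired analysis was possible because the knockout and wild-type arrays share no replicate number. Under every alternative run, 0 keratin probe sets were called, also with 1 probe set per gene or with all probe sets of a gene averaged. Leaving out 1 array gave 0 to 3 calls over all probe sets, the 3 without wild type 6, and the B and plasma cell level as a covariate also gave 3. Over the arrays left out, differences ran from -0.35 to -0.10 for Krt7, -0.020 to 0.053, -0.024 to 0.0054 and 0.00020 to 0.0084 for Krt8 (1420647_a_at, 1423691_x_at, 1435989_x_at), -0.090 to -0.0010 for Krt18, 0.015 to 0.060 for Krt19, -0.11 to 0.073 for Krt20 and -0.27 to 0.19 for Krt23. The signs of the first 2 Krt8 probe sets, Krt20 and Krt23 thus depend on single arrays. Cyclic loess turned Krt8 1423691_x_at to 0.017. With mice per pool as a covariate, Krt7 was -0.039, Krt8 1420647_a_at was -0.042, Krt18 0.072, Krt20 -0.12 and Krt23 0.18. That fit kept all 6 arrays. Only knockouts 2 and 3 were pools of 2 mice, so its difference is that of knockout 1 from the wild-type arrays. Without _x_at and _s_at probe sets, 1 Krt8 probe set remained.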

Other observations

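Krt80, a type II keratin, measured 5.33, 5.29 and 5.32 in the knockouts, against 5.46, 5.31 and 6.23 in wild type 4, 5 and 6. Vim, the intermediate filament protein of mesenchymal and blood cells, measured 8.71, 7.87 and 8.23 in the knockouts, against 8.28, 8.11 and 9.83 in wild type. Both were highest in wild type 6, the array with the highest B and plasma cell markers; what part those cells had was not tested. Both were named after their values were seen. Krt10 was lowest in the same array, at 8.17.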
